A study of Mus musculus with 6 samples.

Results

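Cell cycle genes were followed through mouse lung cells from the middle of lung development to the first postnatal week. The set held 40 genes of 31053 in the count matrices, listed by name with earlier results of these data known. Of these, 20 encode S-phase genes of DNA replication and 20 encode G2/M genes of mitosis, and all 40 were found by gene identifier on 16 chromosomes. The S genes were Mcm2, Mcm3, Mcm4, Mcm5, Mcm6, Mcm7, Pcna, Tyms, Rrm1, Rrm2, Gins2, Cdc6, Cdt1, Uhrf1, Fen1, Ccne1, Ccne2, Dut, Slbp and Tipin. The G2/M genes were Mki67, Top2a, Cenpf, Birc5, Ube2c, Cdk1, Ccnb1, Ccnb2, Ccna2, Nusap1, Tpx2, Cdca8, Aurka, Aurkb, Bub1, Plk1, Hmmr, Cenpe, Kif11 and Cdc20.

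A dividing cell first loads the MCM helicase on its replication origins, then copies its DNA in S phase with clamp, nuclease and nucleotide-making enzymes, and then builds a spindle and separates the chromosomes. Transcripts of the first group accumulate from late G1 into S phase under E2F factors, and those of the second in G2 and mitosis, when cyclin B with Cdk1 drives entry and the anaphase-promoting complex ends it. In the lung the vessel lining must grow with the airways, and capillary ECs are known to divide more than those of arteries, which leave the cycle as they specialize.

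The series held 6 droplet libraries, 1 for each condition. Sorted libraries came from Cxcl12DsRed/+ lungs of embryonic days E13.5, E15.5 and E18.5 and of postnatal day P8, each made from several lungs mixed together. Where 4 values are given in a row below, they stand for these sorted libraries from the youngest to the oldest. They held reporter-positive cells that lacked CD45 and EpCAM, both CD31-positive ECs and CD31-negative cells. DsRed replaces Cxcl12 on 1 allele of these mice, so cells without Cxcl12 expression were largely outside the sort, and the sorted ECs were not a sample of all lung ECs. The other libraries were unsorted E18.5 lungs, of which one was labelled Cxcl12 homozygous null (Cxcl12DsRed/DsRed) and the other heterozygous control (Cxcl12DsRed/+), with more than one lung in each group by the study's text. The labels of these lungs went against their own data. The library labelled null held 19986 Cxcl12 UMIs, a level of 192 per 1000000 UMIs (CPM), and the library labelled control held 109, or 1.27 CPM. The names of their deposited files also give the genotypes the other way round. They are therefore called the library labelled null and the library labelled control, and no effect of genotype is read from them.

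Libraries held 63746333 to 117522172 UMIs in 8845 to 13098 barcodes, of which 8268 to 12726 cells passed the filters on genes and mitochondrial share. Pairs of libraries shared 20 to 54 barcodes, and the whole lungs 140, of which 17 remained after filtering. ECs were cells with at least 2 UMIs of Pecam1 and Cdh5, and in the sorted libraries all 7 endothelial marker genes were found in them. Markers of other cells also differed between the EC groups. The summed epithelial markers in sorted ECs stood at 18.9, 44.1, 499 and 399 CPM, and the erythroid markers at 22.8, 511, 1207 and 910 CPM, while the mesenchymal markers went from 870 to 397, 152 and 24.6 CPM. Their part in the results below was not tested. With 1 library a group no test was possible, and every interval is a 95% interval for counting error only, which holds neither the spread between lungs nor that between captures.

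The promoters of the members differed between the S and G2/M sets in the short sequence words they held. RefSeq promoters of GRCm38.p6, running from 250 bases before a start to 50 bases after, were at hand for 33 members in 36 windows. The words searched on both strands were the E2F words TTCCCGC and TTGGCGC, the NF-Y box CCAAT, and the cell cycle homology region (CHR) word TTTGAA, where complexes of the DREAM and MuvB type are known to bind. An E2F word stood in 9 of 19 S promoters (47.4%) and in 3 of 17 G2/M promoters (17.6%), against 6.81% of all 32851 promoters. A CHR word stood in 2 S promoters (10.5%) and in 12 G2/M promoters (70.6%), against 17.9% of all. CCAAT was found in 63.2% of S and 88.2% of G2/M promoters, against 37.4% of all, and all 12 G2/M promoters with a CHR word also held CCAAT, a pair found in 6.95% of all promoters. No word overlapped another of a different kind in the windows printed here. In the window of the G2/M gene Ccnb1, which is not printed, an E2F word and a CCAAT box shared bases, and both were counted. The windows of Mcm5 (chr8:75109259-75109558, plus strand), Cdc6 (chr11:98907901-98908200, plus strand), Pcna (chr2:132253131-132253430, minus strand), Cdc20 (chr4:118437294-118437593, minus strand) and Plk1 (chr7:122159185-122159484, plus strand) are shown to let the sets be compared. Mcm5 and Cdc6 stand for S genes with E2F words, Pcna for the S gene whose level went its own way after birth, and Cdc20 and Plk1 for G2/M genes with CCAAT and CHR. Capitals mark the matches, and each window is written 5′ to 3′ on the strand of its gene.
Mcm5 promoter: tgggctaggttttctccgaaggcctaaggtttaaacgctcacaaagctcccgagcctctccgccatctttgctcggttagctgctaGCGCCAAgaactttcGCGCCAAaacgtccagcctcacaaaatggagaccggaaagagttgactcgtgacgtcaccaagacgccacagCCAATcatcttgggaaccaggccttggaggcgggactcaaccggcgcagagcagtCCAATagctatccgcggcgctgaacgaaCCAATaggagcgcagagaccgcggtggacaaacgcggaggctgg
Cdc6 promoter: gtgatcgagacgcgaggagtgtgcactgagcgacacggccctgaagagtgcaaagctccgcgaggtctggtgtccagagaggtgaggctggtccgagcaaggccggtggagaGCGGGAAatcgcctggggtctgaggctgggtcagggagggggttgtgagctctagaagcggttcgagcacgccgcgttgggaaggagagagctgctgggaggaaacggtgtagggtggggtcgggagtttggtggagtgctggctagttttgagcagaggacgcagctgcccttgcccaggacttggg
Pcna promoter: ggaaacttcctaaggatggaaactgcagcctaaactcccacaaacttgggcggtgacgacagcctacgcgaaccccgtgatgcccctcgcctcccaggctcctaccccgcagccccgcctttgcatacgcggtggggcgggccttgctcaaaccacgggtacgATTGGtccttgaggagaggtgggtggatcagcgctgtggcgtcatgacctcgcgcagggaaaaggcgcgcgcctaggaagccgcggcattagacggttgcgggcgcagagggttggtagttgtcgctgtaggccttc
Cdc20 promoter: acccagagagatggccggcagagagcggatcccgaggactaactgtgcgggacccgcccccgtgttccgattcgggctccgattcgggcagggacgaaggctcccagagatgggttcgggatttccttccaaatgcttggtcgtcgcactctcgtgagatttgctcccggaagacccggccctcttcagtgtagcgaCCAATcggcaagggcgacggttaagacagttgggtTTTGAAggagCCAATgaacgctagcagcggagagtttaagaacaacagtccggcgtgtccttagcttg
Plk1 promoter: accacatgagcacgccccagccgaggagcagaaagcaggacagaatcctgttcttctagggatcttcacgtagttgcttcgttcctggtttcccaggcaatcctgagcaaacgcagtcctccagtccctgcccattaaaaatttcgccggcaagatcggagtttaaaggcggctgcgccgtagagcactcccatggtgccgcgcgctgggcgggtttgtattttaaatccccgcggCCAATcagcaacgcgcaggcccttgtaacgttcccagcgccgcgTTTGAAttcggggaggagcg
Mcm5 held 2 E2F words, at 164 and 149 bases before the start, and 3 CCAAT boxes. Cdc6 held 1 E2F word. Its window belongs to a RefSeq start inside the gene, which GENCODE places from 98907801 on. Some windows not printed, such as those of Dut and Cdca8, also lie inside their genes. Pcna held CCAAT alone. Cdc20 held 2 CCAAT boxes with a CHR word between them, and in Plk1 a CCAAT box was followed by a CHR word downstream of the start. These are matches of letters and not measured binding sites.

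Sorted ECs held the members at a high level at E13.5 and E15.5 and at less than that level at E18.5 and P8. Summed over the 40 genes, the level was 2846, 2977, 1320 and 1407 CPM, in 210, 9453, 9119 and 8259 ECs. The E18.5 level was thus 0.44 times that of E15.5, a log2 difference of -1.17 (-1.18 to -1.16). The change was seen in both sets. S genes went from 1209 to 560 CPM and G2/M genes from 1767 to 760 CPM. Between E13.5 and E15.5 the summed level differed by 0.06 on the log2 scale (0.02 to 0.10). No member was at least 2-fold lower or higher, against 4.55% and 2.6% of all genes of at least 10 CPM. The mix of EC states differed between these libraries, and the Gja4 state described below was lower at E15.5 than at E13.5.

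**Figure D1:**
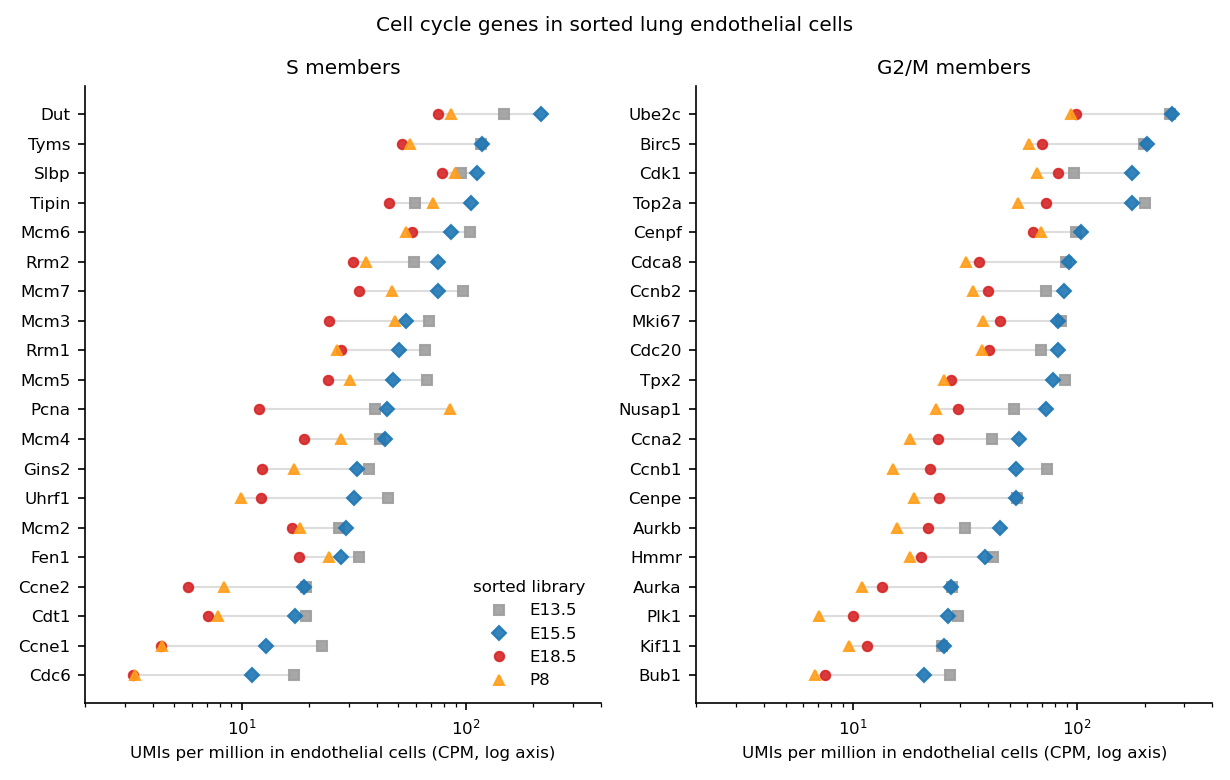
Level of each S gene (left) and G2/M gene (right) in ECs of the 4 sorted libraries, in CPM on a log axis, 1 point for each library. Nearly all members lie together at E13.5 and E15.5 and lower at E18.5 and P8, and Pcna stands apart, with 84.9 CPM at P8 after 11.9 CPM at E18.5.

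The share of cycling ECs followed the same course. Each cell was thinned to 2000 UMIs, and a cell with at least 4 UMIs of the members was called cycling. By this measure 35.1% (28.6% to 42.0%) and 34.9% (33.9% to 35.9%) of ECs were cycling in the early libraries, against 9.36% (8.76% to 9.98%) and 12.2% (11.5% to 12.9%) in the late ones. Thinning left out 2, 20, 141 and 197 shallower ECs. Without thinning, the share of ECs with at least 10 member UMIs was 43.8%, 41.9%, 10.3% and 15.8%, at median depths of 7087, 8610, 5682 and 5667 UMIs per EC. For comparison, non-ciliated epithelial cells of the whole lungs, the class with the least cycling, reached 2.66% and 2.73% on the thinned scale at median depths of 15938 and 12768 UMIs. Whether some of these epithelial cells were themselves cycling was not tested, so their shares are no measure of free RNA.

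**Figure D2:**
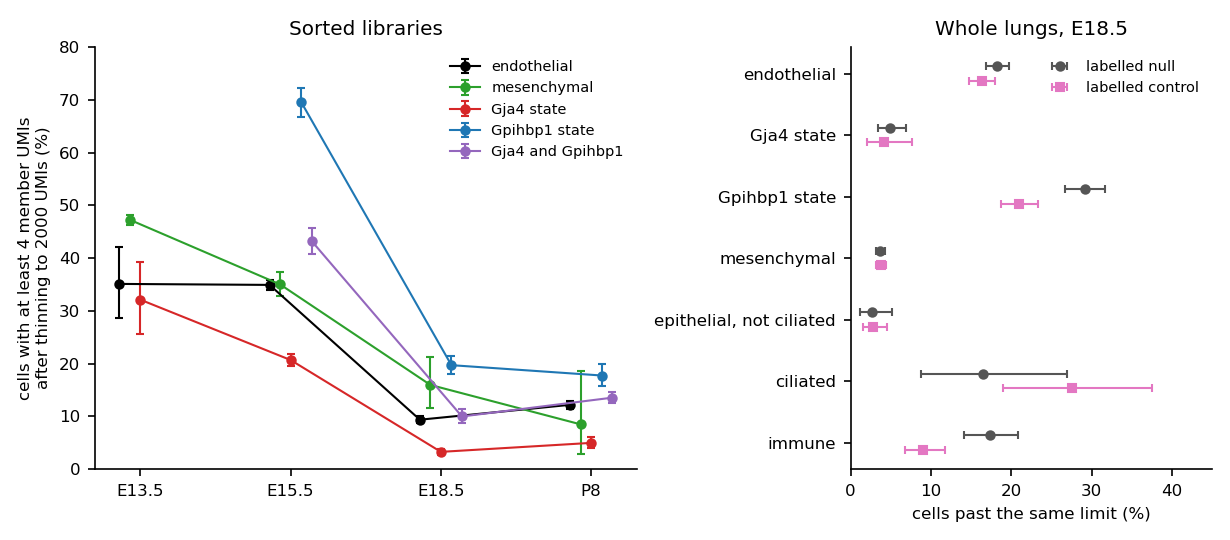
Share of cells with at least 4 member UMIs after thinning to 2000 UMIs, in percent, for cell groups of the sorted libraries over time (left) and for cell classes of the whole E18.5 lungs (right), with 95% exact binomial intervals. The EC share is 34.9% at E15.5 against 9.36% at E18.5, and cells of the Gpihbp1 state lie above those of the Gja4 state wherever both are shown.

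Cycling cells are known to be larger and richer in RNA, and depth per cell moved with the result. ECs with at least 10 member UMIs had medians of 11716 UMIs at E15.5 and 9322 at E18.5, against 7271 and 5457 for the other ECs. Deeper cells pass this unthinned limit more easily, so these medians cannot show that cycling ECs held more RNA. Within a fixed window of depth the E15.5 share remained above the E18.5 share in all 4 windows. In cells of 2000 to 5000 UMIs the shares were 14.9% and 4.43%, in cells of 5000 to 8000 UMIs 18.8% and 7.50%, in cells of 8000 to 12000 UMIs 38.2% and 16.3%, and above 12000 UMIs 58.5% and 25.1%. The P8 shares in the same windows were 5.81%, 11.8%, 16.5% and 23.7%. The log2 difference in summed level from E15.5 to E18.5 was -0.95, -0.56, -0.62 and -0.86 in these windows, from the shallowest to the deepest, in place of -1.17, so its size rested on how depth was treated. Whether depth differed for biological or technical reasons cannot be told apart.

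All 40 members were lower at E18.5 than at E15.5 in ECs, and 30 of them, 14 S and 16 G2/M genes, by at least 2-fold. Of all 8508 genes compared, 4.8% were at least 2-fold lower. The median log2 difference of the members was -1.19, against 0.18 over all genes. No member was higher.

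Among the S genes the largest differences were those of Pcna, Ccne2, Cdc6 and Dut. Cdc6, which loads the MCM helicase, was at 17.2, 11.1, 3.28 and 3.34 CPM, a log2 difference of -1.62 from E15.5 to E18.5. Its partner Cdt1 was at 19.4, 17.2, 7.07 and 7.87 CPM, and Gins2, a subunit of the active helicase, at 37.2, 32.6, 12.3 and 17.1 CPM. For these origin genes both early libraries lay above both late ones. The helicase subunits Mcm2 to Mcm7 differed less, with log2 values of -0.58 for Mcm6 to -1.18 for Mcm4. Mcm6 was at 104, 86.2, 57.5 and 54.2 CPM, and Mcm3 at 68.3, 54.0, 24.6 and 48.2 CPM, so that Mcm3 at P8 had returned near its E15.5 level and Mcm6 had not. Ccne1 and Ccne2, the E cyclins that start S phase with Cdk2, were at 12.8 and 18.9 CPM at E15.5 and at 4.34 and 5.77 CPM at E18.5.

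Dut and Tyms, enzymes of DNA precursor supply, were among the S genes with the most UMIs. Dut, which removes dUTP, was at 148, 216, 75.0 and 86.0 CPM over the 4 times and alone held 6.73% of the member UMIs of sorted ECs. Tyms, the thymidylate synthase, was at 117, 118, 51.7 and 56.3 CPM. Both were highest in the early libraries. The ribonucleotide reductase subunits differed from each other. Rrm1, the large subunit, was at 66.0, 50.4, 27.7 and 26.6 CPM, and Rrm2, the subunit that is made anew in each cycle, at 58.8, 75.4, 31.2 and 35.9 CPM. The smallest S difference was in Slbp, which binds histone mRNA, at 112 CPM at E15.5 and 78.2 CPM at E18.5, a log2 value of -0.52 (-0.57 to -0.47). Tipin, a replication fork protein, was at 105 and 45.6 CPM, Uhrf1, which passes on DNA methylation, at 31.8 and 12.2 CPM, and the flap nuclease Fen1 differed by -0.62.

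G2/M genes shared a narrower range, from -0.71 for Cenpf to -1.55 for Birc5 on the log2 scale between E15.5 and E18.5. Ube2c, the ubiquitin-conjugating enzyme of the anaphase-promoting complex, was the member with the most UMIs, 8.26% of those of all members in sorted ECs. It stood at 259, 267, 99.2 and 93.5 CPM over the 4 times. Birc5 and Cdca8, subunits of the chromosomal passenger complex, were at 205 and 91.8 CPM at E15.5 and 69.6 and 36.4 CPM at E18.5, and Aurkb, the kinase of that complex, at 45.3 and 21.6 CPM. All 3 genes of the complex were lower together. The proliferation marker Mki67 was at 84.9, 81.9, 45.2 and 38.2 CPM, and Cenpf, a kinetochore protein made from G2 on, at 98.8, 104, 63.9 and 69.4 CPM. These and Hmmr and Aurka were the G2/M genes that did not reach 2-fold.

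Kinases and cyclins of mitotic entry were also lower at E18.5 than at E15.5. Cdk1 was at 97.1, 176, 81.8 and 66.5 CPM, so that its E13.5 level lay nearer to E18.5 than to E15.5. Its cyclins Ccna2, Ccnb1 and Ccnb2 were at 54.9, 53.6 and 87.2 CPM at E15.5 and 23.9, 22.0 and 40.1 CPM at E18.5. Plk1, the kinase of centrosomes and mitotic entry, was at 26.5 and 9.95 CPM, and Bub1 of the spindle checkpoint at 20.8 and 7.52 CPM. Of the spindle genes, the Aurora A activator Tpx2 was at 78.1 and 27.5 CPM, the motors Kif11 and Cenpe at 25.6 and 53.3 CPM at E15.5 and 11.5 and 24.1 CPM at E18.5, and Nusap1, which bundles microtubules, at 72.5 and 29.5 CPM. Top2a, which untangles sister DNA, was at 176 and 72.4 CPM, and Cdc20, the activator that starts anaphase, at 81.8 and 40.4 CPM. No gene of this group was at the E15.5 level at P8.

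Between E18.5 and P8 the sum differed little while its parts went apart. The summed level was higher by 0.09 on the log2 scale (0.08 to 0.11), the S genes by 0.42 (0.40 to 0.44), and the G2/M genes differed by -0.21 (-0.23 to -0.19). The direction of the sum rested on the measure, with -0.085 as the median over the members. It also turned with depth, at 0.17 and 0.24 in cells of 2000 to 5000 and 5000 to 8000 UMIs, and at -0.091 and -0.24 in cells of 8000 to 12000 UMIs and deeper ones. The size of the sum rested on Pcna, without which it was higher by 0.015. Of the S genes 17 of 20 were higher at P8, with a median of 0.20, and of the G2/M genes 19 of 20 were lower, with a median of -0.25, against 0.04 over all genes. Cenpf was the G2/M gene that was higher. At a 2-fold size, 1 member was higher, Pcna, and none lower, against 4.17% and 4.31% of all genes. Next to Pcna, Mcm3 was higher by 0.96, Tipin by 0.64 and Mcm4 by 0.54, and Ccnb1 was lower at -0.52. These values are over all ECs, and the direction of the G2/M sum differed among the EC gates described below. It was higher at P8 in the Gja4 (0.16, 0.10 to 0.23), Cxcl12 (0.63) and Car4 (0.42) gates. It was lower in the Gpihbp1 state (-0.47), in cells with both markers (-0.11) and in the Gkn3 gate (-1.50).

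The balance of the sets differed accordingly. The log2 of summed S over summed G2/M UMIs was -0.49, -0.55, -0.44 and 0.20. Among cycling ECs, the share with more S than G2/M UMIs was 47.9% (36.1% to 59.96%), 40.9% (39.2% to 42.6%), 42.4% (39.01% to 45.8%) and 66.6% (63.6% to 69.5%). Over all ECs, P8 was the library that stood apart in both measures. By gate, the balance at P8 minus that at E18.5 was 0.089 in the Gja4 state and 0.039 in the Cxcl12 gate. It was 0.25 in the Car4 gate, 0.62 in the Gpihbp1 state, 0.61 in cells with both markers and 1.49 in the Gkn3 gate. The balance at P8 minus that at E15.5, 0.75 over all ECs, was 1.49, 1.24, 0.21 and 0.504 in the 4 depth windows, from the shallowest to the deepest. Without Pcna, a variant added after its values had been seen, the balance was -0.54, -0.60, -0.47 and 0.02, and the share of S-leaning cycling ECs was 40.3%, 40.9%, 43.1% and 63.0%.

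**Figure D3:**
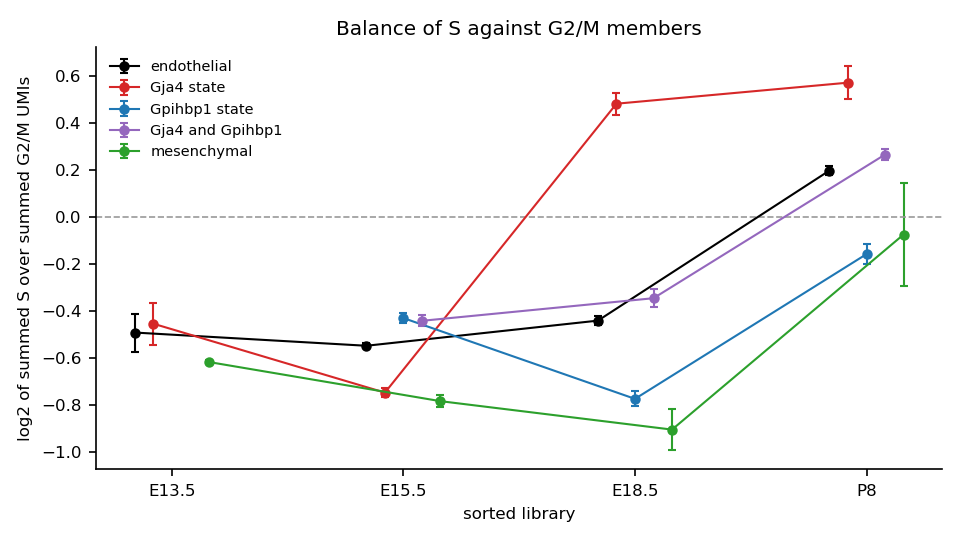
Log2 of summed S UMIs over summed G2/M UMIs in the sorted libraries, for all ECs, for EC states and for mesenchymal cells, with counting intervals. The dashed line marks equal sums, and ECs as a whole cross it between E18.5 (-0.44) and P8 (0.20).

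Pcna, the sliding clamp of DNA polymerases, which also serves in DNA repair, did not follow the other S genes. Its level in ECs was 39.4, 44.6, 11.9 and 84.9 CPM. The log2 difference was -1.86 (-2.02 to -1.79) from E15.5 to E18.5, the lowest of the 40 members, and 2.78 (2.72 to 2.95) from E18.5 to P8, the highest. The share of ECs with a Pcna UMI at 2000 UMIs of depth was 8.17%, 6.98%, 2.14% and 13.9%. Pcna UMIs at P8 were found in cycling and other cells. Cells that were not cycling by the other 39 members held 8.12 CPM of Pcna at E18.5 but 58.6 CPM at P8, and at P8 they carried 51.4% of the Pcna UMIs of the endothelial cells. Free RNA was not measured in the sorted libraries, so UMIs in single cells that were not cycling are not read as expression by them. The P8 level was above that of E18.5 in both EC states, with 9.14 and 65.5 CPM in the Gja4 state and 17.96 and 103 CPM in the Gpihbp1 state at E18.5 and P8. Sorted mesenchymal cells had 17.8 CPM in the 232 cells of E18.5 against 58.4 CPM in the 59 cells of P8. The whole E18.5 lungs had 31.9 CPM (labelled null) and 33.0 CPM (labelled control) in ECs, above the 11.9 CPM of sorted ECs of that age, so the 3 libraries of this age ranged from 11.9 to 33.0 CPM.

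Members were unequally shared among EC states. The Gja4 state held at least 2 UMIs of Gja4, the connexin 37 gene of arteries, and fewer than 2 of Gpihbp1, the lipoprotein lipase anchor of capillary ECs, and the Gpihbp1 state held the converse. The summed members in the Gja4 state were at 2064, 640 and 744 CPM in the last 3 sorted libraries, and in the Gpihbp1 state at 4934, 2492 and 2155 CPM. The Gja4 state was lower at every time, with log2 differences of -1.26, -1.96 (-1.99 to -1.93) and -1.53. The share of cycling cells was 20.7% against 69.6%, 3.26% against 19.7%, and 4.96% against 17.7%. Cells with both markers lay between, at 43.2%, 9.97% and 13.5%. Other gates did not all keep this order. ECs with at least 2 UMIs of Gkn3, an arterial marker in the paper, were at 1261 CPM and 9.87% cycling at E18.5. Those with at least 2 of Car4, its marker of alveolar capillaries, were at 1036 CPM and 7.48%. Those with at least 5 of Cxcl12 were at 696 CPM and 3.81%. At P8 the Gkn3 and Car4 gates were at 826 and 1512 CPM. The Gja4 share of E18.5 lay within both intervals of the non-ciliated epithelial share (1.15% to 5.17% and 1.503% to 4.55%), and that of P8 (3.94% to 6.17%) lay within the first and above the second. Depth differed as well, with medians of 7848, 5475 and 5011 UMIs in the Gja4 state and of 10458, 5826 and 5239 UMIs in the Gpihbp1 state, which were close at the later times. Within the depth windows, from the shallowest to the deepest, the E18.5 log2 difference between the states was -1.13, -1.99, -2.45 and -1.32. At E13.5, 190 of 210 ECs were in the Gja4 state, at 2657 CPM and 32.1% cycling, and the Gpihbp1 state had too few cells to be compared.

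All 40 members were lower in the Gja4 state at all 3 times. In order of age, 34, 35 and 34 of them were at least 2-fold lower, against 4.56%, 6.86% and 5.79% of all genes. At E15.5 these were all 20 S genes and 14 G2/M genes, and at E18.5 all 20 G2/M and 15 S genes. The median was -1.48 for S and -1.13 for G2/M genes at E15.5, and -1.27 and -2.55 at E18.5. Ccna2, the cyclin of S phase and G2, had the lowest value at E18.5, -2.96, with 6.46 CPM in the Gja4 state and 53.5 CPM in the Gpihbp1 state. Rrm2 was at 9.35 and 72.4 CPM, a log2 value of -2.89. This S gene lay in the range of the G2/M genes (-2.09 to -2.96), as did Ccne1 (1.402 and 11.05 CPM) and Mcm5 (11.09 and 49.8 CPM), and the other S genes lay above it. At the other end Slbp was at 64.0 and 107 CPM and Mcm6 at 45.2 and 77.7 CPM.

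Time and state did not combine evenly. In the Gja4 state the G2/M genes went from 1293 to 267 CPM between E15.5 and E18.5, a log2 difference of -2.27 (-2.31 to -2.24), and the S genes from 771 to 373 CPM, -1.05 (-1.08 to -1.01). In the Gpihbp1 state the order was the other way, with -0.85 (-0.87 to -0.82) for G2/M and -1.19 (-1.22 to -1.16) for S. Of the 30 members at least 2-fold lower in the Gja4 state, 20 were G2/M genes and 10 S genes, against 3.9% of all genes. Of the 19 in the Gpihbp1 state, 5 were G2/M and 14 S genes, against 6.58%. Birc5 went from 145 to 21.8 CPM in the Gja4 state and from 335 to 150 CPM in the Gpihbp1 state. Cenpf went from 79.4 to 20.9 CPM and from 160 to 130 CPM. Mcm7 went from 48.2 to 24.5 CPM and from 130 to 54.2 CPM. The difference between the states in these changes was not tested. Median depth differed between the 2 libraries in both states, and these changes were not taken within depth windows.

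**Figure D4:**
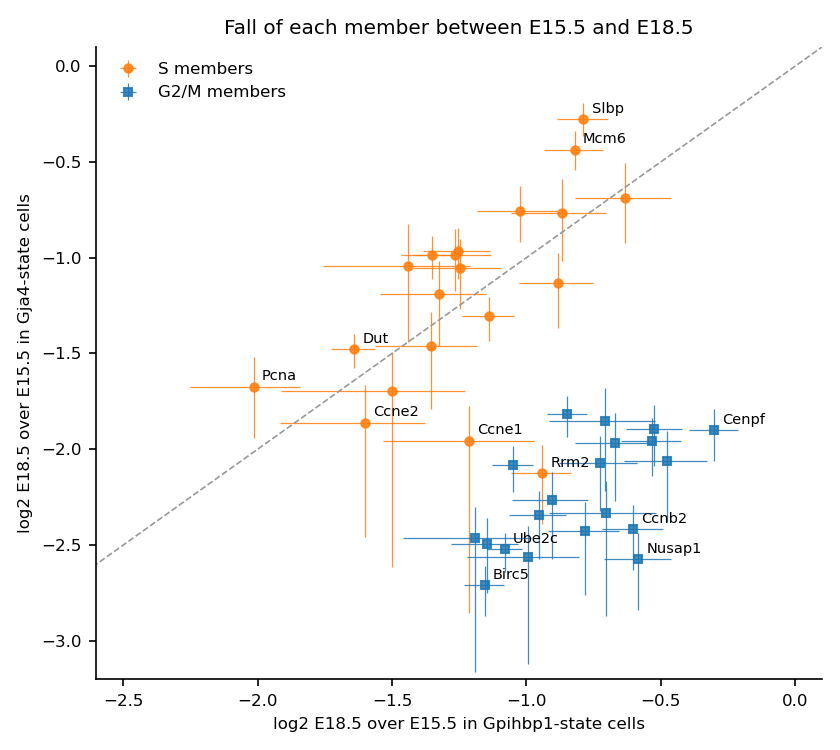
Log2 of E18.5 over E15.5 for each member in cells of the Gpihbp1 state (horizontal) and of the Gja4 state (vertical), 1 point for each gene. All 40 points lie below 0 on both axes, and the G2/M genes lie low on the vertical axis, at -1.82 to -2.71, with the S genes Rrm2 (-2.12), Ccne1 (-1.95) and Ccne2 (-1.86) in the same range.

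The balance in the Gja4 state has to be read with the share of cycling cells. It was 0.48 at E18.5 and 0.57 at P8, against -0.77 and -0.16 in the Gpihbp1 state, but among the few cycling Gja4 cells at E18.5 the S-leaning share was 44.7% (35.7% to 53.9%), beside 43.8% (38.9% to 48.8%) in the Gpihbp1 state. At P8 these shares were 57.1% (45.4% to 68.4%) and 67.4% (60.8% to 73.5%). The S-leaning share of cycling cells was thus alike between states at E18.5 within these intervals, and the summed balance was not.

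The S genes had a larger part of their UMIs in cells not called cycling than the G2/M genes. To see this, ECs were classed for each gene by the other 39 members. At E18.5 the median S gene had 38.8% of its UMIs in ECs that were not cycling, with a range from 4.63% for Rrm2 to 62.8% for Slbp, and the median G2/M gene 4.92%, with a range from 1.55% for Bub1 to 17.2% for Cdk1. At E15.5 the medians were 12.6% and 2.17%, and at P8 31.4% and 3.81%. Mcm6 and Dut were S genes with many of their UMIs in cells not called cycling at E18.5, 57.5% and 49.9%. A cell below the limit of 4 UMIs may still have been cycling, and free RNA was not measured in the sorted libraries. These shares are therefore not read as expression by cells outside the cycle. All 20 G2/M genes were higher in G2/M-leaning than in S-leaning cells in each of the 5 libraries with enough cells, and 15 to 18 of the 20 S genes were higher in S-leaning cells. Rrm2 was among the exceptions, with a log2 of G2/M-leaning over S-leaning of -0.08, 0.91 and 2.47 in the last 3 sorted libraries. Rrm1 was also higher in G2/M-leaning cells, at 0.28, 0.39 and 0.87, and so was Tyms, at 0.20, 0.07 and 0.82. At P8 Ccne1 joined them at 0.69 and Ccne2 at 0.03. Cdc6, Cdt1 and Mcm2 were on the other side at all 3 times, for Cdt1 with -1.36, -1.32 and -1.43.

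Other cell cycle genes were lower at E18.5 as well. Of 24 further S genes 10, and of 34 further G2/M genes 15, were at least 2-fold lower in ECs at E18.5 than at E15.5, against 4.8% of all genes, with medians of -0.96 and -1.02 against 0.18 over all genes. In cycling against other ECs, 21 of the 24 and 31 of the 34 were at least 2-fold higher in each of the last 3 sorted libraries. So were 106 of 2681 non-members of over 50 CPM in each library, a limit not set on the list genes. A ranking was made of genes that are no members and had at least 50 CPM in cycling or other ECs of each library. In it the highest ratios of cycling over other ECs were those of Prc1, Hist1h1b, Pimreg, Pbk, Knl1, Sgo2a, Pclaf and Ckap2l. The last of these is also on the G2/M list. Prc1, which bundles the midzone of the spindle, was at 323 CPM in cycling and 2.55 CPM in other ECs at E18.5. The lowest in this ranking were those of Slc45a4, Thsd7a, Cxcl12, Vwf, Atp13a3, Cdkn1c, Mecom and Slc6a6. Cxcl12, the chemokine gene that carries the reporter, was at 356 CPM in cycling and 1336 CPM in other ECs at E18.5, with log2 values of -1.45, -1.91 and -1.31 over the 3 times. The arterial marker Gja5 differed by -1.69, -1.79 and -1.50. Cycling shares differed between the EC states, and the ratios of cycling over other ECs were not taken within a state. Cycling and state cannot be told apart in them.

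Inhibitors of the cycle moved in different ways over time. Cdkn1a, the p21 gene, was at 11.7, 8.72, 110 and 249 CPM in ECs over time. Cdkn1c, the p57 gene, which is imprinted, was at 688, 598, 462 and 158 CPM. Over time, in all ECs together, Cdkn1a was low where the members were high, and Cdkn1c was not. Between the states it was the converse. Cdkn1c was at 870 CPM in the Gja4 state and 97.3 CPM in the Gpihbp1 state at E18.5, a log2 value of 3.15, and Cdkn1a at 69.3 and 151 CPM. At E15.5 Cdkn1c was at 723.5 CPM in the Gja4 state and 249 CPM in the Gpihbp1 state. From E15.5 to E18.5 it was thus higher in the Gja4 state, by 0.27 on the log2 scale (0.24 to 0.29), and lower in the Gpihbp1 state. Cdkn1c was lower in cycling than in other ECs, with log2 values of -1.14, -1.65 and -1.38 in the last 3 sorted libraries. These ratios too were not taken within a state, so cycling and state cannot be told apart in them. Cdkn2c, the p18 gene, was higher in cycling ECs at 64.6 against 1.67 CPM at E18.5. Of 7 inhibitor genes, Cdkn1a and Cdkn1b were at least 2-fold higher and none lower in ECs at E18.5 against E15.5, where 8.93% of all genes were higher and 4.8% lower.

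Among drivers of G1, Cdk4 went with the members over time and Ccnd1, the cyclin D1 gene, did not. Cdk4 was at 487, 509, 251.4 and 235 CPM over time, and hardly differed between states at E18.5 (267 and 255 CPM). Ccnd1 was at 60.5, 153, 273 and 354 CPM over time, and at 74.1 CPM in the Gja4 state and 530 CPM in the Gpihbp1 state at E18.5. E2f1 was at 21.1, 19.7, 13.6 and 12.3 CPM over time and at 5.01 and 26.0 CPM in the states at E18.5. E2f8, which damps E2F targets late in the cycle, was at 24.8 CPM in cycling and 0.21 CPM in other ECs at E18.5. Of the 12 Rb and E2F genes, E2f7 was at least 2-fold lower, at 11.1 and 5.24 CPM, and none higher at E18.5 against E15.5, a count near the 4.8% and 8.93% of all genes. In cycling ECs 6 of the 12 were at least 2-fold higher than in other ECs at all 3 times. So were 106 of 2681 non-members of over 50 CPM in each library, a level that E2f8 did not reach at E18.5.

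In sorted mesenchymal cells, with at least 5 UMIs of Col1a1 and Col3a1 and none of Pecam1 or Cdh5, the members were at 3622, 3432, 2255 and 1510 CPM, in 11122, 1798, 232 and 59 cells. The cycling share was 47.2% (46.3% to 48.2%), 35.0% (32.8% to 37.3%), 15.9% (11.5% to 21.3%) and 8.47% (2.81% to 18.7%). Between E13.5 and E15.5, 1 member was at least 2-fold lower, Mcm7, at 138 and 66.0 CPM, against 4.35% of all genes, although the cycling share was lower by 12.3 points. Within the E15.5 library the summed level in mesenchymal cells exceeded that in ECs by 0.21 on the log2 scale (0.19 to 0.22). Most of it came from G2/M genes (0.30) and less from S genes (0.06, with an interval of 0.04 to 0.08). The cycling shares of 35.0% and 34.9% differed by 0.09 points (-3.10 to 3.32). The log2 difference in summed level was 0.12, 0.23, 0.43 and 0.81 in the 4 depth windows, from the shallowest to the deepest. Ccne1 was the 1 member at least 2-fold higher in mesenchymal cells, at 27.9 CPM against 12.8 CPM, where 13.7% of all genes were. It was highest in mesenchymal cells at E13.5, at 50.5 CPM.

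In whole E18.5 lungs, ECs had the highest summed level of the members among the cell classes compared. ECs were at 2133 CPM in 3042 cells of the library labelled null and 1931 CPM in 2022 cells of the library labelled control, and 18.3% (16.9% to 19.7%) and 16.3% (14.8% to 18.03%) of them were cycling. The share differed by 1.93 points, with an interval from -1.12 to 4.95 that holds 0. Its direction turned with depth, since the shares in the libraries labelled null and control were 5.80% (3.42% to 9.13%) and 9.35% (6.35% to 13.2%) in ECs of 2000 to 5000 UMIs, and 8.10% and 9.24% in those of 5000 to 8000 UMIs. Above these depths they were 19.1% and 18.9%, and from 12000 UMIs on 30.9% and 27.3%. Without thinning the shares were 25.2% and 21.8%, at median depths of 8924 and 8052 UMIs. No member was 2-fold lower or higher between the libraries in ECs, where 0.56% and 0.297% of all genes were, and the members lay between -0.40 for Ccne1 and 0.41 for Mcm3. Both libraries exceeded the sorted ECs of E18.5, which were at 1320 CPM and 9.36%, but by less at matched depth. In cells of 5000 to 8000 UMIs the library labelled null differed from the sorted ECs by 0.03 on the log2 scale (-0.02 to 0.07), with cycling shares of 8.10% and 7.50%, and the library labelled control by 0.17 (0.13 to 0.22). In the other windows the log2 difference was 0.34, 0.11 and 0.25 for the library labelled null and 0.48, 0.21 and 0.09 for the library labelled control. The sort, the capture and the depth of these libraries cannot be told apart.

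EC states in the whole lungs were ordered as in the sorted libraries. The Gja4 state was at 764 and 520 CPM in the libraries labelled null and control, and the Gpihbp1 state at 3154 and 2513 CPM, log2 differences of -2.04 and -2.27. Cycling cells were 4.95% and 4.22% of the Gja4 state and 29.2% (26.7% to 31.7%) and 20.9% (18.7% to 23.4%) of the Gpihbp1 state. The Gpihbp1 state thus differed between the libraries by 8.21 points (3.33 to 13.04), more than counting error gave, in 1 library each and with median depths of 9106 and 8230 UMIs.

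Mesenchymal cells of whole lungs, by contrast, held less of the members than ECs did. They were at 675 and 703 CPM, and 3.72% and 3.74% of them were cycling, beside 15.9% of the 232 mesenchymal cells sorted by the reporter at that age. Epithelial cells without the cilia genes were at 480 and 411 CPM. Immune cells had 1976 CPM and 17.3% cycling (14.1% to 20.9%) in 520 cells of the library labelled null, and 1192 CPM and 9.04% (6.81% to 11.7%) in 566 cells of the library labelled control. In them 38 of 40 members were higher in the library labelled null, a count with no share over all genes beside it. By at least 2-fold 7 were higher, all of them G2/M genes, against 0.649% of all genes. These were Kif11, Bub1, Nusap1, Ube2c, Plk1, Ccnb2 and Top2a. Ube2c was at 196 and 90.0 CPM and Top2a at 153 and 74.9 CPM. Immune cells were gated as 1 class, and a different mix of immune cell types in the lungs was not tested.

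Ciliated cells held some G2/M genes at levels well above those of the other epithelial cells, and other G2/M genes at similar or lower levels. Cells with at least 5 UMIs of Dynlrb2, Ccdc153 and Tmem212, genes of motile cilia, numbered 74 in the library labelled null and 98 in the library labelled control. By the same limit 16.4% (8.79% to 27.0%) and 27.6% (19.0% to 37.5%) of them would be called cycling, and of these 12 and 27 cells none leaned to S. Cdc20 was at 115 and 146 CPM, against 11.5 and 6.02 CPM in the other epithelial cells, and Top2a at 107 and 212 CPM against 19.9 and 22.6 CPM. Cdk1 was at 111 and 165 CPM against 22.0 and 18.9 CPM, and Aurka at 25.6 and 49.7 CPM against 3.25 and 3.21 CPM. For each of these genes both ciliated values lay above both others.

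Mki67, a marker of cycling cells, was at 5.42 and 9.14 CPM in ciliated cells and 14.2 and 13.8 CPM in the others. Its log2 difference was -1.31 (-2.45 to -0.46) in the library labelled null and -0.57 in the library labelled control, where the interval (-1.29 to 0.05) holds 0. Birc5 was at 7.39 and 10.2 CPM against 15.7 and 11.2 CPM. Of the 40 members, 12 were at least 2-fold higher and 2 lower (Mki67 and Birc5) in the library labelled null, where 31.2% and 8.1% of all genes were. In the library labelled control 16 were higher and none lower, where 28% and 7.59% of all genes were. These shares are over genes of at least 10 CPM, which 24 and 27 members reached, some of them only through their level in ciliated cells, so the counts are given as a description. Of the higher genes 10 and 12 were G2/M genes. All 12 genes of the first library were found among the 16 of the other, though this overlap was not set beside that of all genes. They were Cdc20, Top2a, Cdk1, Aurka, Ccnb1, Ccnb2, Tpx2, Cdca8, Cenpf and Cenpe of the G2/M set and Rrm1 and Rrm2 of the S set. Top2a was detected at 2000 UMIs of depth in 17.8% and 25.5% of ciliated cells and in 2.33% and 2.93% of the other epithelial cells. Median depth was 23760 and 24704 UMIs in ciliated cells and 15938 and 12768 in the others. In ECs, by comparison, at most 3.9% of the Mki67 UMIs of any library lay in cells that were not cycling by the other members.

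**Figure D5:**
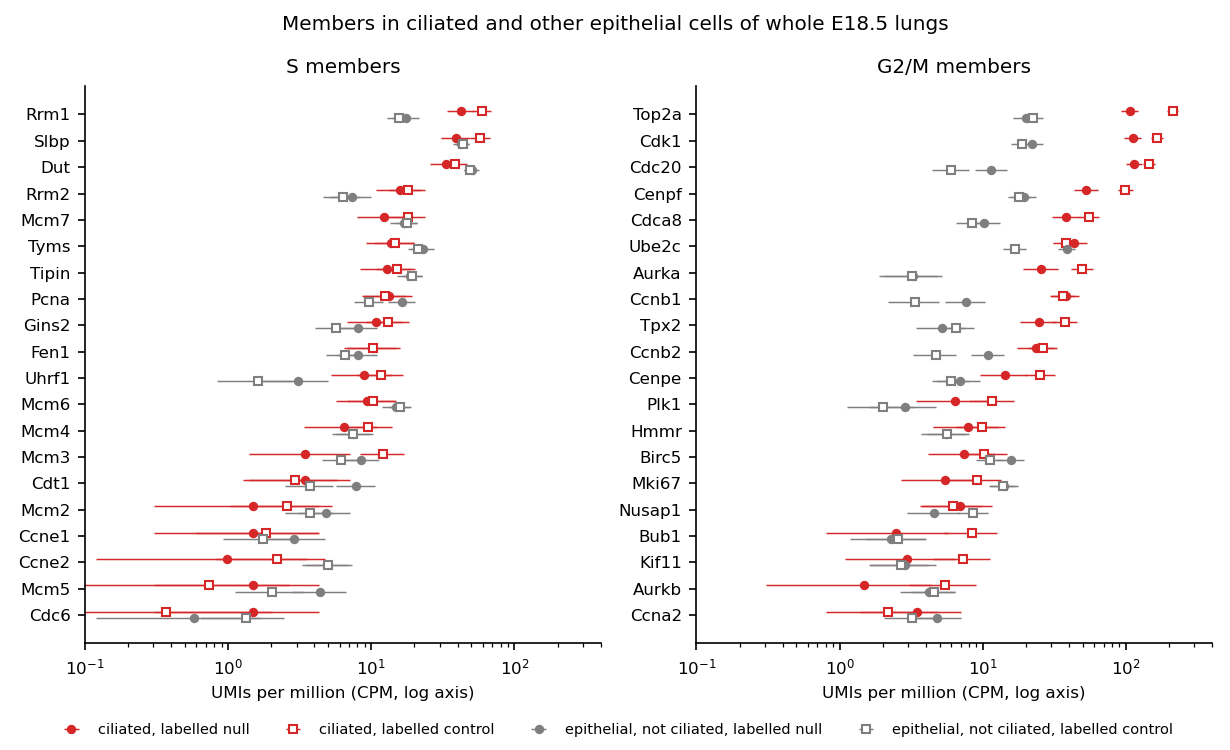
Level of S genes (left) and G2/M genes (right) in ciliated and other epithelial cells of both whole E18.5 lungs, in CPM on a log axis. Cdc20, Top2a, Cdk1 and Aurka are higher in ciliated cells of both libraries, and Mki67 is not, at 5.42 and 9.14 CPM against 14.2 and 13.8 CPM.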

How the data were processed

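Sorted and whole-lung libraries were grouped by their labels. The authors aligned 10x 3′ libraries to mm10 with CellRanger and deposited raw UMI counts. Headers name version 3.1.0 for the E13.5 and whole-lung matrices and 3.0.2 for the rest. Deposited expected counts of the whole lungs, adjusted by the authors with SoupX for free RNA, served as an alternative. No value column was left unmapped (0).

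Cells were kept if they had 700 genes or more and a mitochondrial share of UMIs between 0.5% and 10%. Summed UMIs of the cells in a gate were divided by all their UMIs (CPM), with exact Poisson intervals. Log2 ratios added 0.5 CPM, while their exact conditional intervals did not, and shares have exact Clopper-Pearson intervals. A difference in shares has the interval between its extremes under both shares' intervals, which is wider than 95%. A gene counted toward a 2-fold size if it had at least 10 CPM in either group. Cells were thinned with seed 1, and shallower cells left out. The mesenchymal gate asked for no Pecam1 or Cdh5 UMI. The epithelial gate asked for at least 2 UMIs of Epcam and Cdh1 and the immune gate for at least 3 of Ptprc, Coro1a and Laptm5. Both asked for no Pecam1 or Cdh5 UMI and fewer than 5 of Col1a1 and Col3a1. The epithelial gate also asked for no Ptprc UMI, and the immune gate for no Epcam or Cdh1 UMI.

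Doublets were kept. Scrublet marked 3.38% of cells at E15.5, 5.54% and 5.29% in the whole lungs, but 1, 0 and 0 cells at E13.5, E18.5 and P8, where it did not work, so leaving out the 6% of cells with the highest score was added. Within the last 300 bases of their transcripts, 11 members shared at least 60 identical bases with another gene, and their levels are less certain: Ccnb1, Mcm4, Mcm7, Plk1, Rrm2, Tyms and Uhrf1 with pseudogenes, and Cenpf, Mcm5, Slbp and Ube2c with other transcripts.

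All 40 members were named. Other genes came from fixed lists, and the 8 genes in each direction with the largest mean ratio of cycling over other ECs, of at least 50 CPM and of 1 direction at 3 times. Members and lists were chosen with earlier results of these data known. Scripts were tested on simulated data. Python 3.11.15, numpy 2.4.6, scipy 1.17.1, pandas 2.3.3, scanpy 1.11.5, matplotlib 3.10.9 and blastn 2.17.0 were used, and gene places came from GENCODE.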

Additional observations from a re-analysis of the deposited data

How the results depend on the processing

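Of 110 alternatives to the 7 main values, 105 kept the direction and 58 stayed within the counting interval. No paired analysis was possible because each group had 1 library. The difference in EC cycling share between E15.5 and E18.5 (25.6 points) was 22.3 without the 3 members with the most UMIs (Ube2c, Dut and Birc5), 28.5 and 20.6 at limits of 2 and 6 UMIs, 31.6 without thinning, and 10.4, 11.3, 21.9 and 33.4 in cells of 2000 to 5000, 5000 to 8000, 8000 to 12000 and at least 12000 UMIs, the 4 depth windows named in this order below. The log2 difference in summed level from E15.5 to E18.5 (-1.17) was -1.09 without these 3 members, -1.23 as a mean over cells, -1.19 as the median over members, -1.24 without the 6% of cells with the highest Scrublet score and -0.95, -0.56, -0.62 and -0.86 in the depth windows. That from E18.5 to P8 (0.09) was 0.12 without the ECs with collagen UMIs and also without the 3 members, 0.13 as a mean over cells and without the highest Scrublet scores, 0.17 and 0.24 in the shallow windows and 0.015 without Pcna, and it turned to -0.085 as the median over members and to -0.091 and -0.24 in the deep windows. The Gja4 over Gpihbp1 value at E18.5 (-1.96) was -2.01 without the ECs with collagen UMIs, -1.93 without the 3 members, -1.92 as a mean over cells, -2.16 as the median, -1.83 with gates of 4 UMIs, -2.18 without the highest Scrublet scores, and -1.13, -1.99, -2.45 and -1.32 in the depth windows. Mesenchymal over ECs at E15.5 (0.21) was 0.23 without the ECs with collagen UMIs, without the 3 members and without the highest Scrublet scores, and 0.12, 0.23, 0.43 and 0.81 in the depth windows. The whole-lung EC share (1.93 points) was -3.55, -1.14, 0.25 and 3.6 in the depth windows. Over its 19 alternatives, SoupX-adjusted counts among them, it ranged from -3.55 to 3.85, and 17 kept the direction. The P8 minus E15.5 balance (0.75) was 0.79 without the 3 members, 0.99 as a mean over cells, 0.82 without the highest Scrublet scores, 0.63 without Pcna, and 1.49, 1.24, 0.21 and 0.504 in the depth windows. The cause of these shifts was not tested. The Scrublet calls were not used for values that involve E18.5 or P8 of the sorted libraries, where the caller did not work. The highest Scrublet scores, shared barcodes, Pcna and the depth windows were chosen after seeing the data. With 1 library a group, the intervals bound counting error, and differences between lungs and captures remain unmeasured.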
